A study of Mus musculus with 12 samples.

Results

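The delta-6-desaturase inhibitor given alone was set directly against alpha-linolenic acid (ALA) given alone in differentiated 3T3-L1 cells. 3T3-L1 is a mouse preadipocyte line that a hormone cocktail turns into lipid-storing adipocytes. The comparison rests on 6 of the 12 arrays of the series, 3 labelled with the inhibitor and 3 labelled with ALA, with 1 array of each from cells of passage 6, 7 and 8. Arrays were paired by passage. Genes were taken as members where their mean log2 signal over the 12 arrays lay above the array median of 6.19, which held for 10053 of 19480 named genes.

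Inhibitor cells received the compound at 5 µM, and ALA cells received 50 µM fatty acid with albumin (2%, freed of fatty acids) in the medium, each from day 0 to day 8 of differentiation. RNA was taken at day 8. The vehicle control (ethanol and DMSO) and the group given both agents at those doses entered the estimate of the spread, and their levels are given for orientation. All groups shared the differentiation cocktail and maintenance medium with insulin at 5 µg/ml. Albumin is mentioned for the ALA medium alone, so ALA and albumin cannot be told apart here, and the inhibitor is not named. Every array came from 1 cell line, so p-values reflect how much its cultures varied. The series design lists other contrasts, and this one follows from the layout.

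The ALA array of passage 7 stood apart from the rest. Its correlations with the other 11 arrays across clusters were 0.976 to 0.987, against 0.989 to 0.994 among those 11, and the SD of its signals was 2.25 against 2.32 to 2.39. In passage 7 the inhibitor and ALA arrays differed by over 0.5 on the log2 scale for 21.6% of the members, against 2.71% in passage 6 and 3.08% in passage 8. The median difference in passage 7 was 0.12 among members of middle signal and 0.09 among those of highest signal, when the members were split into 3 equal bins. Each main result is therefore given with and without that array, called ALA 7 here.

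ALA is an omega-3 fatty acid made by plants. The delta-6-desaturase, encoded by Fads2, starts its conversion to longer and more unsaturated fatty acids, which Elovl5 lengthens and Fads1 desaturates again. Cells regulate these enzymes and those of cholesterol synthesis largely through the SREBP transcription factors, which the Scap and Insig proteins hold in the endoplasmic reticulum when sterols are plentiful. Polyunsaturated fatty acids are known to lower SREBP activity, and fatty acids are also ligands of PPAR receptors, which drive the adipocyte programme.

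The promoters of the sterol enzymes are shown first, because these genes differed together between the agents. RefSeq promoter sequences (GRCm38.p6, 250 bases before to 50 after each start) were at hand for 19 of the 24 members of the sterol lists below. The CCAAT box, read as CCAAT or ATTGG and bound by NF-Y, was found in 18 of these 19 genes (94.7%), against 43.4% of the 8212 members with a promoter and 41.1% of all 27025 genes in the table. The sterol regulatory element, searched as TCACNCCAC on both strands, was found in 1 of the 19, Hmgcs1, against 1.41% of members and 1.44% of all genes. A match is a description of the sequence, and the search does not measure binding. The stretches end at the base before the annotated start, run 5′ to 3′ along the gene, and carry the matches in capitals. Sc5d is at chr9:42264301-42264380 (minus strand), Cyp51 at chr5:4104698-4104777 (minus), Idi1 at chr13:8885526-8885605 (plus), Mvd at chr8:122443423-122443502 (minus) and Hmgcs1 at chr13:119690201-119690350 (plus).
Sc5d: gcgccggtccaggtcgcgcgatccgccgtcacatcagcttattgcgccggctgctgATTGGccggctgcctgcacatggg
Cyp51: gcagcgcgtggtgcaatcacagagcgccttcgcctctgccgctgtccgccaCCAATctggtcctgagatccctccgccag
Idi1: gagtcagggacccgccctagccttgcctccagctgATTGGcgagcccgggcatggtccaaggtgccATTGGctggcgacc
Mvd: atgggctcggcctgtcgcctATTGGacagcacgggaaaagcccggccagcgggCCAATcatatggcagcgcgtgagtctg
Hmgcs1: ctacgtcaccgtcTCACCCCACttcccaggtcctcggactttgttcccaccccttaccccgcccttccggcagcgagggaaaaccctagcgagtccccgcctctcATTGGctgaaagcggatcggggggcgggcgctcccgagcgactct

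Enzymes of the mevalonate and isoprenoid steps were higher with the inhibitor than with ALA. All 7 measured enzymes were above the array median and all 7 were higher in 3 of 3 passages, with a median log2 difference of 0.36. Of all members 58.3% were higher, 21.5% were higher in 3 of 3 passages, and the median was 0.04. At the series' own criterion, a limma p under 0.01 without adjustment, 4 of the 7 were called higher, against 1.19% of all members. No gene among the members passed an adjusted p under 0.05, and the smallest was 0.106. Idi1, which isomerises the isoprenoid building block, measured 9.44, 8.71 and 9.58 with ALA and 10.03, 10.17 and 10.19 with the inhibitor in passages 6, 7 and 8. Every inhibitor array lay above every ALA array, and the lowest value was that of the ALA array of passage 7. The log2 difference was 0.89 (SE 0.18, adjusted p = 0.295 in limma), and 0.66 (SE 0.15) without that array. Mvd, the mevalonate decarboxylase, measured 9.33, 9.41 and 9.33 with ALA and 9.69, 9.86 and 9.88 with the inhibitor. Its groups did not overlap, which held for 8.05% of members in this direction, and its difference of 0.46 (SE 0.10) was 0.47 without ALA 7. Pmvk, the phosphomevalonate kinase, differed by 0.61 and Fdps, the farnesyl diphosphate synthase, by 0.35. Ggps1, the geranylgeranyl diphosphate synthase, differed by 0.36, Hmgcs1, which makes HMG-CoA, by 0.25, and Mvk, the mevalonate kinase, by 0.19, and these 3 were not called. Without the ALA array of passage 7 the list median was 0.39, and again 4 of 7 were called.

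The enzymes from squalene to cholesterol were also higher. All 10 measured were higher in 3 of 3 passages, with a median of 0.38, and 7 were called at p under 0.01. Sc5d, the gene of sterol-C5-desaturase, measured 11.06, 10.86 and 10.96 with ALA and 11.50, 11.51 and 11.46 with the inhibitor. The inhibitor arrays had an SD of 0.03 and lay clear of the ALA arrays. The difference was 0.53 (SE 0.09, adjusted p = 0.245), and 0.49 (SE 0.09) without ALA 7. Cyp51, the lanosterol demethylase, measured 9.90, 9.47 and 9.52 with ALA and 10.43, 10.37 and 10.11 with the inhibitor, a difference of 0.67 (SE 0.12). Passage 6 was highest in both groups, and the groups did not overlap. Lss, the lanosterol synthase, differed by 0.49, Ebp, a sterol isomerase, by 0.50, and Hsd17b7, which acts in the same late steps, by 0.44. Dhcr7, which makes cholesterol from its last precursor, differed by 0.32 and Fdft1, the squalene synthase, by 0.28. Msmo1 (0.28), Sqle (0.24) and Nsdhl (0.21) were higher in each passage and not called. Without ALA 7 the median was again 0.38 and 6 of 10 were called, Fdft1 being the one lost. Without the passage block 5 of 10 were called, since Fdft1 and Dhcr7 missed the threshold.

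These differences recurred in each passage. The median over the 17 enzymes of both lists was 0.36 in passage 6, 0.46 in passage 7 and 0.35 in passage 8, where the median of all members was -0.01, 0.07 and 0.03. Of the 17, 15 had groups that did not overlap. Relative to vehicle control, which both contrasts share, the median of these 17 was 0.18 with the inhibitor and -0.21 with ALA. With both agents together the median was 0.25 above ALA alone and 0.16 below the inhibitor alone (-0.16).

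**Figure D1:**
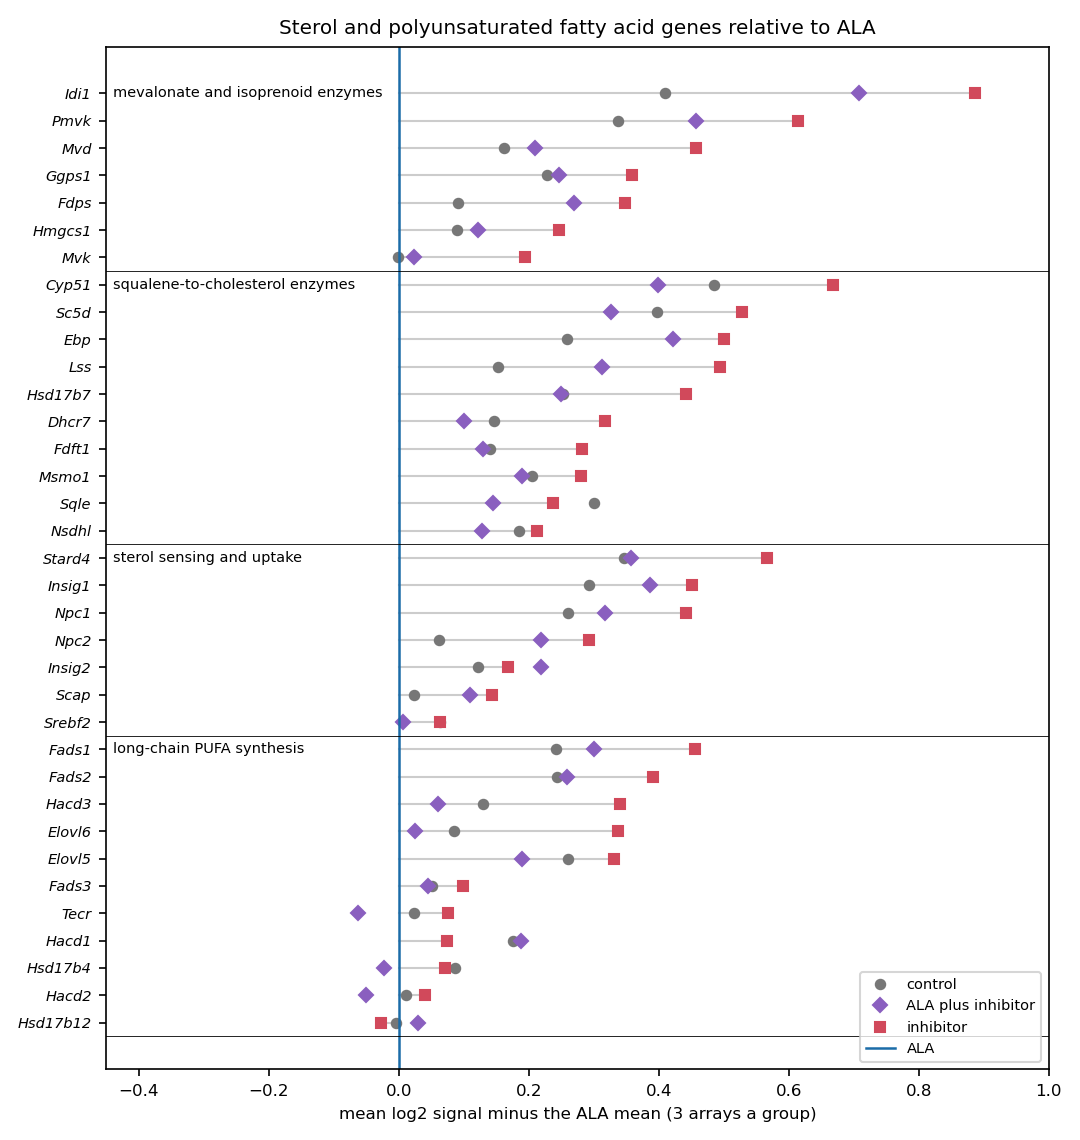
Mean log2 signal of the measured sterol and polyunsaturated fatty acid (PUFA) genes above the array median, minus the ALA mean of the same gene, for control, both agents and inhibitor (3 arrays a group); the blue line is ALA. All 24 sterol genes have the inhibitor mean to the right of ALA, from 0.06 for Srebf2 to 0.89 for Idi1.

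Sterol sensing and uptake genes followed with a wider spread. Of 8 measured, 7 were above the array median, all 7 were higher, 5 of them in 3 of 3 passages, and 2 were called, with a median of 0.29. Without ALA 7, 6 were higher and 1 lower, 1 was called and the median was 0.21. Insig1, the sterol-regulated anchor of the SREBP complex, measured 11.13, 10.97 and 10.74 with ALA and 11.41, 11.46 and 11.33 with the inhibitor. The groups did not overlap, and the difference was 0.45 (SE 0.09) with and 0.45 (SE 0.10) without ALA 7. Stard4, a carrier of cholesterol between membranes, differed by 0.57 (SE 0.14), and by 0.46 (SE 0.15) without ALA 7, where it was no longer called. Npc1, the lysosomal cholesterol exporter, differed by 0.44, and by 0.21 without ALA 7. Srebf2 itself, which encodes the SREBP of sterol synthesis, measured 11.06, 11.20 and 10.83 against 11.07, 11.12 and 11.09, with overlapping groups and a difference of 0.06 (SE 0.10). The list median was 0.07 in passage 6, 0.49 in passage 7 and 0.26 in passage 8, so it was less even than that of the enzymes.

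The desaturases and the elongase on the ALA pathway were higher with the inhibitor than with ALA. Fads2, the gene of the inhibited enzyme, measured 12.39, 12.35 and 12.39 with ALA and 12.77, 12.80 and 12.73 with the inhibitor. The groups were far apart for their spread, with SDs of 0.03 and 0.04, and control lay between at 12.62 ± 0.04 (SD, n = 3). The difference was 0.39 (SE 0.09, adjusted p = 0.298), and 0.38 (SE 0.09) without ALA 7. Fads1, the delta-5-desaturase gene, measured 11.48, 11.23 and 11.26 with ALA and 11.78, 11.82 and 11.74 with the inhibitor. Its difference of 0.46 (SE 0.10) was 0.39 without ALA 7, and no ALA array reached the inhibitor arrays. Elovl5, the elongase between both desaturases, differed by 0.33 (SE 0.09), and by 0.32 (SE 0.10) without ALA 7, where it just missed the call. These 3 were the called genes among 11 members of the long-chain PUFA list, 10 of which were higher, with a median of 0.10. Elovl6, which lengthens saturated fatty acids, measured 9.59, 9.98 and 9.96 with ALA and 10.18, 9.91 and 10.46 with the inhibitor, so passage 7 ran against the other passages. Its difference was 0.34 (SE 0.14), and 0.51 (SE 0.11) without ALA 7, where it was called, so the array that stands apart decided its call.

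De novo lipogenesis genes were higher by less. Of 12 members 11 were higher and 8 were higher in 3 of 3 passages, with a median of 0.19, and the passage medians were 0.21, 0.21 and 0.24. Acss2, which makes acetyl-CoA from acetate, was the 1 called gene at 0.33 (SE 0.10), and it was called neither without ALA 7 (0.37, SE 0.11) nor without the passage block. Acaca, the acetyl-CoA carboxylase, measured 8.65, 8.57 and 8.69 with ALA and 8.87, 8.98 and 8.99 with the inhibitor, without overlap (0.31, SE 0.10). Fasn, the fatty acid synthase, differed by 0.16 and Scd1, the stearoyl-CoA desaturase, by 0.17. Acaca, Fasn and Scd1 were not called. Aacs, a synthetase that feeds ketone bodies into lipid synthesis, was measured outside the lists at 9.37, 8.96 and 8.95 with ALA and 9.72, 9.70 and 9.55 with the inhibitor (0.56, SE 0.12). It was singled out after its values were seen.

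Genes that handle arachidonic and related fatty acids were among those higher with the inhibitor. Acsl4, an acyl-CoA synthetase that favours arachidonic acid, measured 9.41, 9.17 and 8.88 with ALA and 9.96, 9.75 and 9.44 with the inhibitor. Both groups were highest in passage 6 and lowest in passage 8, and the difference was 0.57 (SE 0.11) with ALA 7 and 0.57 (SE 0.13) without it. Pla2g4a, the phospholipase that frees arachidonic acid from membranes, measured 7.86, 6.90 and 7.24 against 8.36, 7.97 and 8.05, a difference of 0.79 (SE 0.18), and 0.65 (SE 0.19) without ALA 7. Ptgs2, the inducible cyclooxygenase, differed by 0.71 (SE 0.21), and by 0.60 (SE 0.24) without ALA 7, where it was not called. Of the 13 eicosanoid enzymes above the array median 9 were higher and 4 lower, with a median of 0.05, so the list as a whole stood near all members. Fabp5, a fatty acid carrier, differed by 0.37 and the transporter Slc27a1 by -0.37, and neither was called without ALA 7. Without the passage block Acsl4, Fabp5 and Slc27a1 were not called.

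Genes of mature adipocytes differed in the other direction. Of 25 adipocyte markers above the array median 18 were lower with the inhibitor than with ALA and 11 were lower in 3 of 3 passages, against 13.9% of all members. Called lower were 5, against 1.4% of all members, and the list median was -0.10, or -0.16 without ALA 7, with passage medians of -0.24, 0.03 and -0.07. Car3, a carbonic anhydrase abundant in fat, measured 10.26, 10.70 and 11.20 with ALA and 9.06, 8.86 and 9.96 with the inhibitor. The groups did not overlap, which held for 4.88% of members in this direction, and passage 8 was highest in both. The difference was -1.43 (SE 0.17, adjusted p = 0.106), and -1.26 (SE 0.17) without ALA 7. Control stood at 10.08 ± 0.37 and both agents together at 9.28 ± 0.72, beside 9.29 ± 0.58 with the inhibitor alone (SD, n = 3). Pck1, the enzyme that supplies glycerol backbones for fat storage, measured 9.08, 9.70 and 9.71 with ALA and 7.47, 8.52 and 9.08 with the inhibitor. It was lower in each passage, with differences of -1.61, -1.18 and -0.63, and the groups met at 9.08. Its difference was -1.14 (SE 0.19, adjusted p = 0.245), and -1.05 (SE 0.22) without ALA 7. Lep, which encodes leptin, measured 7.97, 8.03 and 8.37 against 6.78, 7.41 and 7.77, a difference of -0.80 with and without ALA 7 and no overlap. Bulk arrays cannot tell fewer mature adipocytes from less RNA of these genes per cell.

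**Figure D2:**
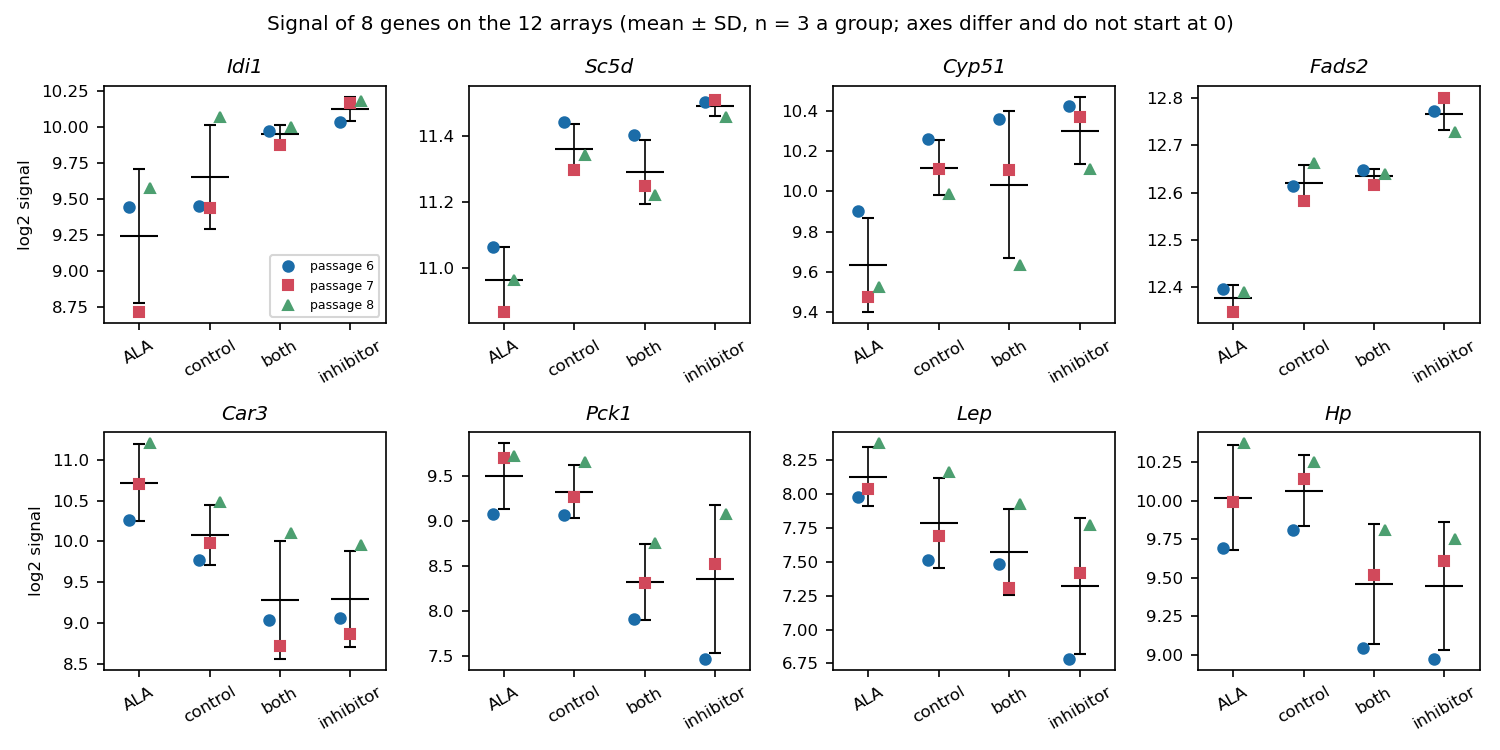
Log2 signal of 8 genes on each of the 12 arrays by treatment (both is ALA plus inhibitor), with passages as symbols and bars for the mean ± SD of 3 arrays. In the top row (Idi1, Sc5d, Cyp51, Fads2) all inhibitor points lie above all ALA points, and in the bottom row (Car3, Pck1, Lep, Hp) the inhibitor point lies below the ALA point of its passage in 3 of 3 passages.

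Other adipocyte genes were mixed. Adipoq, the gene of adiponectin, measured 13.03, 12.96 and 13.16 with ALA and 12.98, 13.12 and 13.20 with the inhibitor (0.05, SE 0.09). Pparg, the master regulator of adipogenesis, differed by -0.10 (SE 0.09) and Fabp4, the adipocyte fatty acid carrier, by 0.03 (SE 0.10), and in all 3 the groups overlapped. Cebpa, a partner of Pparg, measured 10.07, 10.09 and 10.01 against 9.73, 9.71 and 9.90, without overlap (-0.28, SE 0.09), and Bscl2, which encodes the droplet protein seipin, differed by -0.52 (SE 0.17). Neither was called. Averaged over the 27 measured adipocyte markers, the ALA arrays ranged from 10.17 to 10.36 and the inhibitor arrays from 9.92 to 10.21.

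Glycerol handling went both ways. Aqp7, the glycerol channel of adipocytes, measured 9.79, 9.97 and 10.18 with ALA and 9.02, 8.90 and 9.71 with the inhibitor, a difference of -0.77 (SE 0.17), and -0.65 (SE 0.18) without ALA 7. Gpd1, the cytosolic glycerol-3-phosphate dehydrogenase, differed by -0.31 and its mitochondrial counterpart Gpd2 by 0.39, and neither was called without ALA 7. Without the passage block none of Aqp7, Gpd1 and Gpd2 was called. In the list of lipolysis and lipid droplets 11 of 13 members were lower, with a median of -0.10, or -0.16 without ALA 7, with Aqp7 the 1 called member. Among those not above the array median, Mgll, at a mean of 6.03, differed by -0.52 with a limma p under 0.01. Plin5 (0.18) and Cidea (0.09) were higher. The passage medians of that list were -0.29, 0.03 and -0.06, so its direction was not shared by all passages.

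Receptors for fatty acids and hydroxy acids that lay above the array median were lower with the inhibitor. Of 8 measured, 4 were above the array median. All 4 were lower in 3 of 3 passages, against 13.9% of all members, with a median of -0.37. Among those not above it, Ffar1 (0.10) and Ffar3 (0.13) were higher and Gpr84 (-0.36) and Gpr119 (-0.40) lower. Ffar4, the receptor for long-chain omega-3 and other fatty acids, measured 9.44, 9.65 and 9.32 with ALA and 8.18, 8.74 and 9.21 with the inhibitor. The difference between arrays was large in passage 6 and small in passage 8, and the fit gave -0.76 (SE 0.23), and -0.66 (SE 0.27) without ALA 7, where it was not called. Ffar2, the short-chain fatty acid receptor, differed by -0.41, the lactate receptor Hcar1 by -0.33 and the hydroxybutyrate receptor Hcar2 by -0.30, none of them called. The passage medians of the 4 were -0.54, -0.49 and -0.08. Of 18 PPAR-responsive genes 7 were higher and 11 lower, 6 of them in 3 of 3 passages, and 3 were called lower (Aqp7, Gpd1 and Cpt1a), of which Aqp7 alone was called without ALA 7. The list median was -0.03, which became 0.03 with arrays centred on their medians. Cpt1a, the gate of mitochondrial fatty acid oxidation, differed by -0.44 (SE 0.13), and by -0.40 (SE 0.15) without ALA 7, and it was called neither there nor without the passage block. The fatty acid sensors' usual target genes Angptl4 (-0.10), Pdk4 (0.28) and Plin2 (-0.04) were not called.

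Acute-phase proteins that adipocytes secrete were lower with the inhibitor. Of 26 inflammatory and acute-phase genes measured 15 were above the array median, and 12 of these were lower. Lower in 3 of 3 passages were 7, against 13.9% of all members, and 3 were called lower, against 1.4%. Among the genes not above the array median, Il6 (0.25), Il1b (0.11), Il1rn (0.08) and Cxcl10 (0.05) were higher and the others lower. Hp, haptoglobin, measured 9.69, 9.99 and 10.37 with ALA and 8.98, 9.61 and 9.75 with the inhibitor. The arrays of passage 6 were lowest in both groups, so the groups overlapped while each pair differed the same way. The difference was -0.57 (SE 0.11, adjusted p = 0.245), and -0.64 (SE 0.11) without ALA 7. The orosomucoid genes Orm2 (-0.51) and Orm1 (-0.37) were called as well, though they are near-identical copies and the sources used here do not say whether their probes are separate. Lcn2, lipocalin 2, measured 11.33, 11.08 and 11.08 against 10.83, 10.81 and 10.77 without overlap, and its difference of -0.36 (SE 0.12) was -0.44 (SE 0.13) without ALA 7, where it was called. The list median was -0.12, and -0.28 without that array. Without the passage block Hp, Orm2 and Orm1 were not called.

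Most stromal and matrix genes were lower too. Of 10 preadipocyte and stromal markers above the array median 9 were lower and 7 were lower in 3 of 3 passages, with a median of -0.28 and 2 called. Dlk1, the preadipocyte factor, measured 11.51, 11.56 and 11.66 with ALA and 11.14, 11.21 and 11.39 with the inhibitor, without overlap (-0.33, SE 0.10). Acta2, smooth muscle actin, differed by -0.37 although its level moved from 9.80 to 11.41 between the ALA arrays of passages 6 and 8. Neither was called without ALA 7 or without the passage block, and the list median without ALA 7 was -0.20. Among 23 extracellular matrix genes 18 were lower (median -0.14) and 1 was called, the proteoglycan gene Dcn at -0.41, which was not called without ALA 7 or without the block. Of 16 thermogenic markers measured 7 were above the array median, and Ucp1, Prdm16, Cidea, Dio2 and Elovl3 were not. All 7 were lower, 1 of them in 3 of 3 passages, against 13.9% of all members. Their passage medians were -0.23, -0.31 and 0.00, with a median of -0.28 (-0.14 without ALA 7) and none called. Among the markers not above the array median, Elovl3 (0.25), Cidea (0.09) and Fgf21 (0.02) were higher and the others lower. Averaged over the 14 measured stromal markers, the highest ALA array was at 9.35 and the highest inhibitor array at 9.22, and the lowest inhibitor array was at 8.81, with overlapping ranges. Markers of mature and of precursor cells were thus both lower, and the part of culture composition in this was not tested.

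The genes ranked highest by p outside these lists had varied roles. Arxes1, an adipocyte gene of the X chromosome with a near-identical copy, measured 7.19, 6.97 and 7.80 with ALA and 6.35, 5.84 and 6.65 with the inhibitor. Its groups did not overlap and its difference was -1.04 (SE 0.13, adjusted p = 0.106), and -1.02 without ALA 7. Osr2, a zinc finger transcription factor, measured 7.77, 8.30 and 8.60 against 6.91, 7.15 and 7.69 (-0.97, SE 0.12, adjusted p = 0.108). All values of the inhibitor group were below those of the ALA group. Sfrp2, a secreted Wnt antagonist, measured 8.66, 8.99 and 9.55 against 7.90, 7.75 and 8.76, a difference of -0.93 (SE 0.13) with groups that overlapped through passage 8. The transcription factor gene Glis3 differed by -0.70, the galactosyltransferase gene B3galt2 by -0.96, the matrix protein gene Svep1 by -0.67, Wfdc21 by -0.63, the scavenger receptor gene Scara3 by -0.57 and the mitochondrial protein gene Chchd10 by -0.50. Without the passage block Sfrp2, Svep1 and Scara3 were not called.

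On the higher side Trp53inp1, a stress protein induced by p53, measured 6.51, 5.66 and 5.95 with ALA and 7.22, 7.04 and 6.76 with the inhibitor. The groups did not overlap, and the difference of 0.97 (SE 0.14, adjusted p = 0.215) was 0.80 (SE 0.12) without ALA 7. The p53 target list, to which Trp53inp1 belongs, had 10 of 13 members higher, against 58.3% of all members, and a median of 0.07. Without ALA 7 it had 8 of 13 higher and a median of 0.03. In this list Fas was called lower (-0.37, not called without ALA 7), and Cdkn1a was not called. Steap1, a metalloreductase family gene, differed by 0.67, the glycerol kinase family gene Gk5 by 0.58 and the small heat shock protein gene Hspb6 by 0.47. Without the passage block Steap1, Gk5, Hspb6 and Fas were not called. Aldh1a7, an aldehyde dehydrogenase gene with close relatives, measured 9.48, 9.39 and 9.50 against 9.94, 9.89 and 9.89 (0.45, SE 0.09). Its values were tight within each group, and control stood with ALA at 9.48 ± 0.13 (SD, n = 3).

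Stress lists leaned toward the inhibitor with few calls. Of all members 58.3% were higher, and 21.5% were higher in 3 of 3 passages. NRF2 antioxidant genes had 21 of 23 members higher, 16 of them in 3 of 3 passages, with a median of 0.19, or 0.12 without ALA 7, and none called. Nqo1, the quinone reductase, measured 7.70, 7.27 and 7.78 with ALA and 7.92, 8.20 and 8.06 with the inhibitor, without overlap (0.47, SE 0.16). Its lowest value was the ALA array of passage 7, and without it the difference was 0.30 (SE 0.15). The integrated stress response list had 18 of 23 higher and 1 called, the mitochondrial folate enzyme gene Aldh1l2 at 0.55 (SE 0.15), and 0.43 (SE 0.16) without ALA 7, where it was not called. It was not called without the passage block either, where Nqo1 was. The cystine transporter gene Slc7a11 differed by 0.19 (SE 0.13) and was not called. The unfolded protein response list had 15 of 19 higher and none called, and its median of 0.11 was 0.03 without ALA 7. Ribosomal protein genes had 17 of 19 higher (median 0.09) and proteasome genes 20 of 27 (median 0.08), with none called in either.

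Several lists had medians within 0.1 of 0, where 58.3% of all members were higher. Oxidative phosphorylation had 10 of 24 higher (median -0.01), insulin signalling 8 of 20 (-0.02), glycolysis and hypoxia 14 of 24 (0.01), LXR targets 5 of 11 (-0.05), triacylglycerol synthesis 5 of 12 (-0.08) and mitochondrial beta-oxidation 7 of 17 (-0.09). Beta-oxidation had 9 of 17 members lower in 3 of 3 passages and triacylglycerol synthesis 5 of 12, against 13.9% of all members. Each had 1 called lower (Cpt1a and Gpd1), against 1.4% of all members, and neither gene was called without ALA 7. Without ALA 7 the median was -0.01 for glycolysis and hypoxia (12 of 24 higher), -0.03 for triacylglycerol synthesis and -0.04 for insulin signalling. With arrays centred on their medians the medians of oxidative phosphorylation, insulin signalling and LXR targets turned positive, and after quantile normalization that of glycolysis and hypoxia turned negative. Of 26 cell cycle genes 11 were higher (median -0.09), with 1 called, the mitotic kinesin gene Kif18b, at 6.97, 6.97 and 7.23 with ALA and 6.59, 6.51 and 6.60 with the inhibitor (-0.49, SE 0.10). Of 16 clock genes 13 were higher (median 0.13, or 0.09 without ALA 7), with Ciart, a repressor of the clock, called at 0.58. The clock passage medians were -0.005, 0.29 and 0.23, and 6 of the 16 were higher in 3 of 3 passages. Of 22 interferon-stimulated genes measured 8 were above the array median, and 6 of these were higher, with Stat2 called at 0.43. Without ALA 7, 5 of the 8 were higher, with a median of 0.02. Among those not above the array median, Irf7 (0.41), Isg15, Oasl2, Psmb8, Gbp2 and Gbp3 were higher and the others lower, down to Mx2 (-0.55). Immediate early genes had 13 of 20 higher, near the share of all members, with none called. Heat shock genes had 8 of 9 higher with none called. Only 2 of these 9 were higher in 3 of 3 passages, against 21.5% of all members, and their passage 6 median was -0.004. Without ALA 7, Ciart and Stat2 were not called and Kif18b was, and Stat2 was not called without the passage block.

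**Figure D3:**
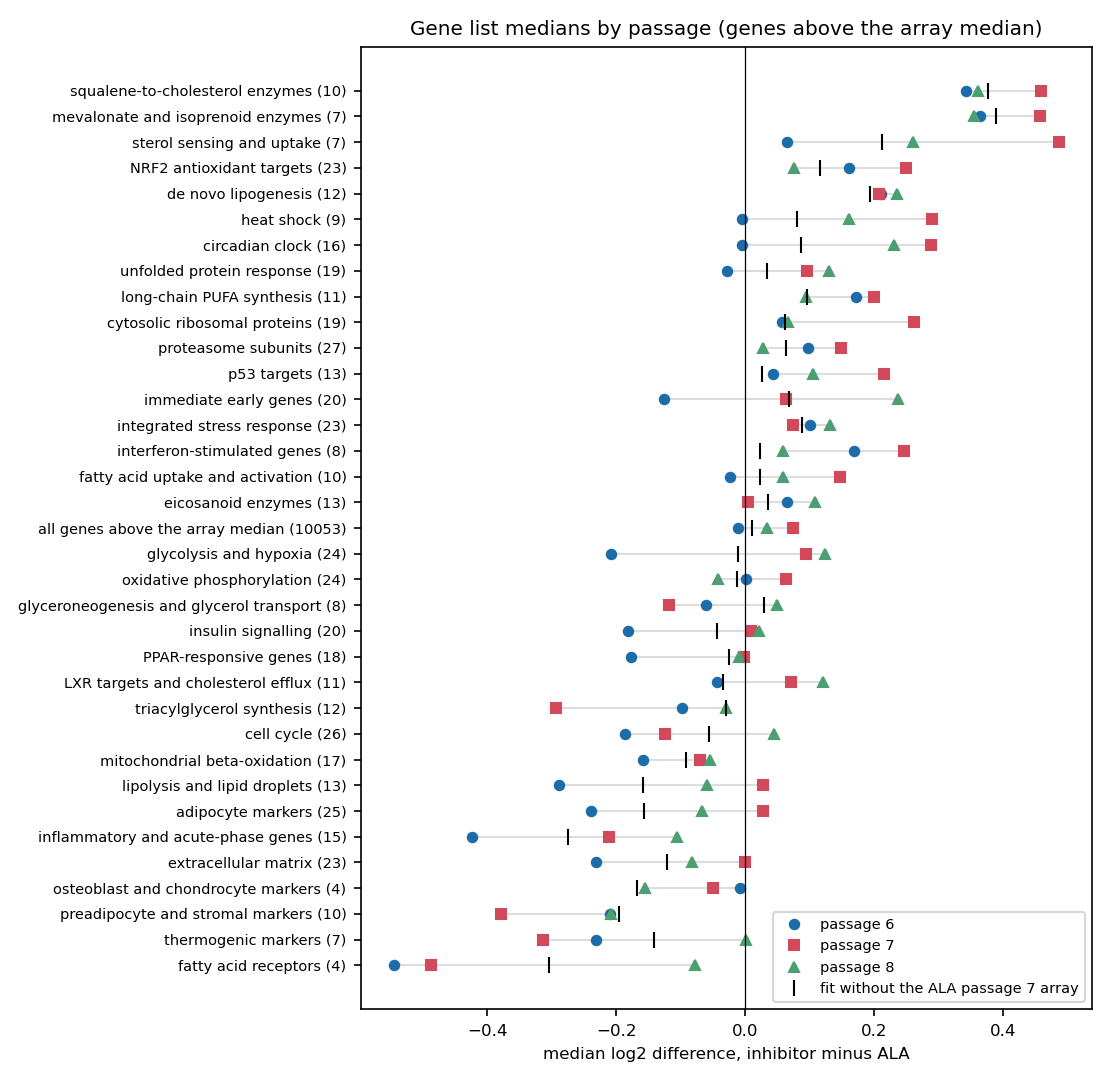
Median log2 difference, inhibitor minus ALA, of each gene list with 4 or more members above the array median (number in brackets), for each passage and for the fit without the ALA array of passage 7. The 2 enzyme lists of sterol synthesis sit between 0.34 and 0.46 in every passage, while all members together sit between -0.01 and 0.07.

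Markers of other cell types were mostly below the array median. Macrophage markers averaged 4.74 to 4.89 on the ALA arrays and 4.75 to 4.86 on the inhibitor arrays, with Ptprc, Adgre1, Csf1r and Itgam below the array median. Endothelial markers averaged 4.89 to 5.18 and 5.03 to 5.09, with Pecam1, Cdh5, Kdr and Tek below the array median. Muscle markers averaged 5.34 to 5.68 and 5.16 to 5.45, and osteoblast and chondrocyte markers 5.88 to 6.07 and 5.82 to 5.96. The ranges of the groups overlapped for all 4 lists, and 0 of 13 macrophage markers had a p under 0.01. Under that p were the endothelial markers Tek (lower) and Emcn (higher), the muscle marker Mylpf (lower) and, of 10 osteoblast and chondrocyte markers, Alpl (higher, 0.54) and Bglap (lower). Above the array median were 2 of 13 macrophage, 2 of 11 endothelial, 3 of 12 muscle and 4 of 10 osteoblast and chondrocyte markers. The brightest were Sox9 at a mean of 10.25 over the 12 arrays, Flt1 at 7.98, Des at 7.84, Alpl at 7.72 and Esam at 7.30, and of these Alpl alone was called. The adipocyte markers Adipoq, Fabp4, Plin1 and Lipe were above the array median.

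Over all 10053 members, 120 were called higher and 141 lower at p under 0.01, together 2.6%. At p under 0.05 there were 1227 (12.2%), and at an adjusted p under 0.05 limma gave 0, or 45 with an intensity trend in its variance prior. Those 45 were 23 higher and 22 lower, among them Sc5d, Fads2, Insig1, Cyp51 and Idi1 on the higher side and Car3, Osr2, Pck1, Lep and Hp on the lower side. With the ALA 7 array left out, 51 were called higher and 69 lower (0.507% and 0.686%), with a smallest adjusted p of 0.307. Of the 120 higher and 141 lower genes, 42 and 56 were still called then. All 261 kept their direction, which their choice on the same arrays largely set in advance. Without passage as a replicate block 63 were higher and 61 lower (0.627% and 0.607%), 39 and 64 when the inhibitor array of passage 7 was left out, 65 and 85 when the one of passage 8 was, and 316 and 196 when the ALA array of passage 6 was. Of the 54 genes called among the 157 chosen by rule, 34 to 44 were still called when 1 of the 6 arrays was left out. All 54 kept their direction, again largely set by how they were chosen. The split between directions also moved with scaling, from 46% higher to 71.5% with arrays centred on their medians (198 and 79) and 38.6% after quantile normalization (108 and 172). The 17 sterol enzymes were all higher under each of these settings.

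**Figure D4:**
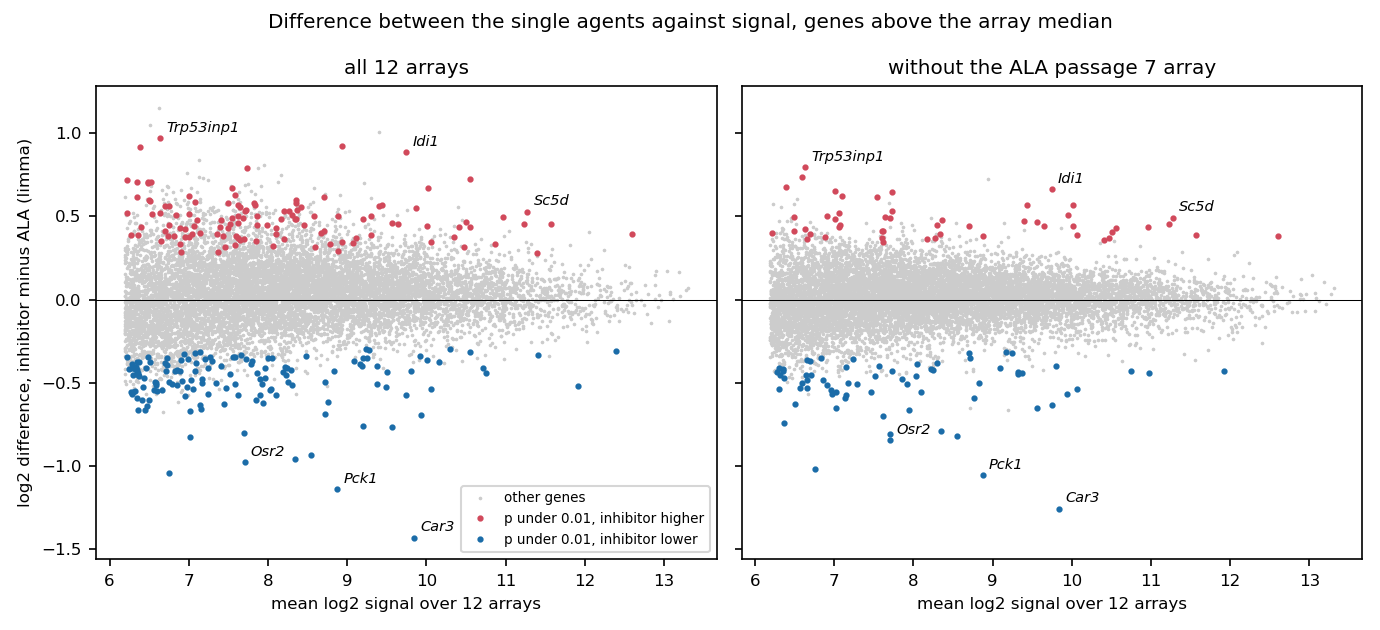
Log2 difference (inhibitor minus ALA, limma) against mean log2 signal for the 10053 members, with all 12 arrays on the left and without the ALA array of passage 7 on the right. Coloured points have a p under 0.01 (120 higher and 141 lower on the left, 51 and 69 on the right), and Car3 is lowest in both panels.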

How the data were processed

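The authors deposited log2 signals from RMA, as named in the submitters' processing notes, with a version not given here. RMA corrects the background, puts the probe signals of all arrays on one distribution and summarises probes, so much of a shift shared by all genes of an array is removed. The deposited array medians still ranged from 6.14 to 6.27 and the SDs from 2.25 to 2.39. Per the labels' protocols, biotinylated cRNA was made from 100 ng RNA with integrity numbers above 8.9 for an Affymetrix whole-transcript array. The deposited table held 22104 transcript clusters on 12 arrays, 19509 of them with 1 gene symbol in GEO's platform annotation, and a gene with several clusters was given by the brightest.

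The 4 groups of 3 arrays were fitted together with limma 3.58.1 in R 4.3.3 (lmFit and eBayes), with passage as a fixed replicate block. P-values were adjusted by Benjamini-Hochberg over all 22104 clusters, and counts were taken over the 10053 genes above the array median. The number of arrays limits the precision. Passage pairs the arrays through the labels' passage number: deviations of same-passage ALA and inhibitor arrays from their group means correlated at 0.0928, 0.122 and 0.525 over the members in passages 6, 7 and 8. Over all clusters these correlations were -0.0454, 0.0877 and 0.334, so between ALA and inhibitor arrays only passage 8 showed a clear pairing. Between all 4 groups, 17 of 18 same-passage pairs correlated over 0.1 over the members (0.0928 to 0.678). By mean correlation with arrays of the other groups, 12 of 12 arrays matched their own passage best. The fit was tested on simulated data.

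The genes named were the 12 higher and 12 lower with the smallest p under 0.01 that differed the same way in 3 of 3 passages, 23 genes listed by hand, and up to 4 of smallest p in each of 37 gene lists. Other genes named were picked after their values were seen. One gene that the rule names is not reported here. Members and lists were chosen with earlier results of these data known, so lists carry counts and medians and no p. Alternatives changed the block, the arrays fitted, scaling, array weights, the variance prior, the adjustment and the signal filter.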

Additional observations from a re-analysis of the deposited data

How the results depend on the processing

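All 54 named genes called at p under 0.01 kept their direction under every alternative run, and 26 to 53 of them kept a p under 0.01. These genes were picked for their difference on the same arrays, so the kept direction was largely set by that choice. The fits with no replicate block, with only the 6 arrays or with an intensity trend leave the log2 differences themselves unchanged. The 17 sterol enzymes were higher under each alternative, with 3 to 15 called and medians of 0.31 to 0.43. All 17 were higher in 3 of 3 passages, so leaving out a passage could not turn them. The count of genes at p under 0.01 (261, of which 120 higher and 141 lower) moved most. It was 124 with no replicate block (63 and 61), 63 with only the 6 arrays compared and the block (24 and 39), 517 with array weights (275 and 242), 634 with an intensity trend (390 and 244) and 92 above the 75th percentile of signal (49 and 43). Without a filter on signal it was 544, with 366 lower, and centring gave 198 higher and 79 lower. Leaving out 1 array or 1 passage gave 63 to 512 genes, 19 to 316 higher and 44 to 196 lower. At an adjusted p under 0.05 limma gave 0 genes, against 3 with array weights, 3 with adjustment over the members only and 45 with an intensity trend. Without the ALA array of passage 7, the 120 genes at p under 0.01 became 36 with no replicate block and 15 with only the 5 arrays compared. Of 34 list medians, 29 to 34 kept their sign. That of 4 osteoblast and chondrocyte markers, -0.17, ranged from -0.206472 to 0.000475593 when 1 array or passage was left out, turning sign without replicate 8. The causes of these shifts were not tested, except that fewer arrays or genes enter some fits. With 3 arrays a group, differences in genes near the array median were poorly resolved.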
